A study of Mus musculus with 12 samples.

Results

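The matrix-binding integrin subunits described here are 10 genes, the alpha subunits Itga1, Itga3, Itga5, Itga6, Itga8 and Itgav and the beta subunits Itgb1, Itgb3, Itgb5 and Itgb6. They were chosen by name, and all 10 were found among the 15768 genes listed for both sorted cell populations, which the labels name glomerular endothelial cells (GEC). All 10 also passed the filter on low counts in every comparison. Integrins are receptors of the cell surface made of 1 alpha and 1 beta subunit, which bind matrix proteins outside the cell and are linked to the actin cytoskeleton inside it by talin, kindlins and other adaptors. The pairing decides the ligand: alpha1 with beta1 binds collagens, alpha3 and alpha6 with beta1 bind laminins, alpha5 with beta1 binds fibronectin, alpha8 with beta1 binds nephronectin, and alphav pairs with beta1, beta3, beta5 or beta6 to bind vitronectin, fibronectin or the latent form of TGF-beta. In the glomerulus, the filter of the kidney, such receptors hold endothelial cells and podocytes to the basement membrane between them and mesangial cells to their matrix.

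RNA was sequenced from sorted glomerular cells of 6 mice on the C57BL/6 strain, all 4 months old and all carrying a Tek-Cre driver with a tdTomato (tdT) reporter. Of these mice 3 were wild type (WT) and 3 had Alport syndrome (AS), labelled Col4a5 -/-, a loss of the alpha5 chain of type IV collagen. Cells of digested glomeruli were sorted by tdT brightness, so that each mouse gave 1 dim tdT and 1 bright tdT library, and the 12 libraries formed 4 groups of 3. The authors deposited read counts per gene, which summed to 11440169 to 15074909 per library. The tdT signal marks cells in which Tek-Cre was active at any time, and the cells were gated on size, single cells and tdT brightness, with no endothelial marker in the sort. Levels are given as CPM, the usual rate of counts for a library of standard size, after TMM normalization of all 12 libraries. Between genes they are compared as CPM per kb of exon, since a longer gene collects more reads. Calls were made with edgeR's quasi-likelihood test at an adjusted p under 0.05 (Benjamini-Hochberg, over all genes tested).

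The label of the cells was checked against markers. The 10 endothelial markers summed to 9936 to 17798 CPM in the bright tdT and to 218 to 1266 CPM in the dim tdT libraries, lowest in AS-dim tdT at 218 to 299.7 CPM. The 6 leukocyte markers listed for both subpopulations summed to 3605 to 9889 CPM in the dim tdT and 13.3 to 64.8 CPM in the bright tdT libraries, with every AS-dim tdT above every WT-dim tdT library. Of the 10 endothelial markers, 9 or 10 had over 3 counts in each dim tdT library, and Plvap was the lowest. The RNA markers thus go against an endothelial name for the dim tdT libraries, where the leukocyte sum exceeded the endothelial sum in all 6, and these are called dim tdT cells, by their gate. By flow cytometry of sorted cells, the paper reported that nearly all dim tdT and bright tdT cells stained for Ehd3 protein, with WT1 almost absent. That is a measure of protein per cell, while the sums here are RNA levels of whole libraries. Since these are bulk libraries, fewer cells of a type and less RNA per cell cannot be told apart. Col4a5 itself was at 67.6, 37.1 and 73.9 CPM in WT-dim tdT and at 3.60, 1.99 and 1.36 CPM in AS-dim tdT, a log2 fold change of -4.69 (edgeR adjusted p = 0.00982). In the bright tdT libraries it was low in both genotypes, at 4.92, 5.13 and 9.996 CPM in WT and 3.13 to 6.79 CPM in AS, and the ranges overlapped.

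The start regions of 3 members that the results turn on are shown: Itga3, a laminin receptor subunit with a called interaction, Itgb1, the shared beta subunit, and Itgb6, the epithelial beta subunit. Each is the 250 bases before the outermost RefSeq start on GRCm38.p6, 5′ to 3′ on the strand of the gene. Of the 10 members, 8 had an entry, all but Itga6 and Itgb3. Capitals mark matches, on either strand, to one of 5 motifs. The GC box was searched as GGGCGG, which 32.7% of all 32851 such windows hold. The ETS core was searched as CCGGAA, held by 12% of them. The box with the letters TATAAA is in 12.4% of the windows, and the box with the letters CCAAT is in 33.8%. The AP-1 site was searched as TGANTCA, with N for any base, which is in 6.75% of the windows.
Itga3, chr11:95076715-95076964, minus strand: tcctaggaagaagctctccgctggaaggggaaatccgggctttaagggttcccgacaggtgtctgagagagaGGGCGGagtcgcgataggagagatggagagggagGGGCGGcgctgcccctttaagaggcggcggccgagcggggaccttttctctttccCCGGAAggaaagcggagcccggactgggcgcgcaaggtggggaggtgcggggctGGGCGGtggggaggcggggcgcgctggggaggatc
Itgb1, chr8:128685404-128685653, plus strand: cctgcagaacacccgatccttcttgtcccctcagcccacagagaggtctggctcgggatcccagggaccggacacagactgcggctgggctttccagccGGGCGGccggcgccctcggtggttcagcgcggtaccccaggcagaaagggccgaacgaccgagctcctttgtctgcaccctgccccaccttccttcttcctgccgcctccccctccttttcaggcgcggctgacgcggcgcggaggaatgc
Itgb6, chr2:60722604-60722853, minus strand: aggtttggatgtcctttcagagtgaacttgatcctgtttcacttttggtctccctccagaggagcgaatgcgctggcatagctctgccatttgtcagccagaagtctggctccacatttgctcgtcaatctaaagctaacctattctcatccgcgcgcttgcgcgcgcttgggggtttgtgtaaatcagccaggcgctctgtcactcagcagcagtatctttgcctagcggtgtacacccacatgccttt
The Itga3 window held 3 GC boxes and 1 ETS core, the Itgb1 window 1 GC box, and the Itgb6 window none of the 5. A match is a run of letters and not a shown binding site, and no match says only that the letters are not in the window.

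Per kb of exon, Itga6 was the leading alpha member and Itgb1 and Itgb5 were the leading beta members in bright tdT GEC. In WT-bright tdT the alpha members stood in the order Itga6 at 84.1 ± 17.5, Itga8 at 52.9 ± 22.1, Itga3 at 18.7 ± 6.73, Itga5 at 10.9 ± 4.597, Itgav at 8.13 ± 2.15 and Itga1 at 4.22 ± 0.597 CPM per kb (SD, n = 3 each). The libraries of Itga6 and Itga8 overlapped, as did those of Itga3 with Itga5 and of Itga5 with Itgav, so only the steps from Itga8 to Itga3 and from Itgav to Itga1 exceeded the spread. Among the beta members of WT-bright tdT, Itgb5 at 129 ± 9.56 and Itgb1 at 119 ± 18.1 CPM per kb overlapped, and both lay far above Itgb3 at 2.10 ± 0.533 and Itgb6 at 2.03 ± 1.26 CPM per kb. In AS-bright tdT the alpha order was the same, with Itga6 at 131 ± 16.9 CPM per kb clear of Itga8 at 54.5 ± 13.1 CPM per kb. Itgb1 at 238 ± 13.04 CPM per kb now lay above Itgb5 at 134 ± 38.6 CPM per kb in every library.

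The dim tdT libraries had another order. In AS-dim tdT, Itga5, the fibronectin receptor subunit, led the alpha members at 20.6 ± 3.50 CPM per kb, above Itgav at 10.1 ± 0.735, Itga6 at 9.10 ± 2.48, Itga8 at 6.17 ± 2.54, Itga3 at 1.86 ± 0.349 and Itga1 at 1.28 ± 0.0828 CPM per kb (SD, n = 3 each). Itgav and Itga6 overlapped there, and so did Itga6 and Itga8. In WT-dim tdT Itga6 led at 20.7 ± 3.73 CPM per kb, and Itgav, Itga8 and Itga5 followed at 14.6 ± 1.41, 11.8 ± 3.05 and 10.4 ± 1.48 CPM per kb with overlap between neighbours. As a share of the summed alpha members, Itga5 took 16.2% ± 0.534 in WT-dim tdT and 41.9% ± 6.09 in AS-dim tdT, against 6.10% ± 2.65 in WT-bright tdT and 5.23% ± 0.771 in AS-bright tdT. Itga6 took 18.6% ± 5.70 in AS-dim tdT and 54.4% ± 4.91 in AS-bright tdT.

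**Figure D1:**
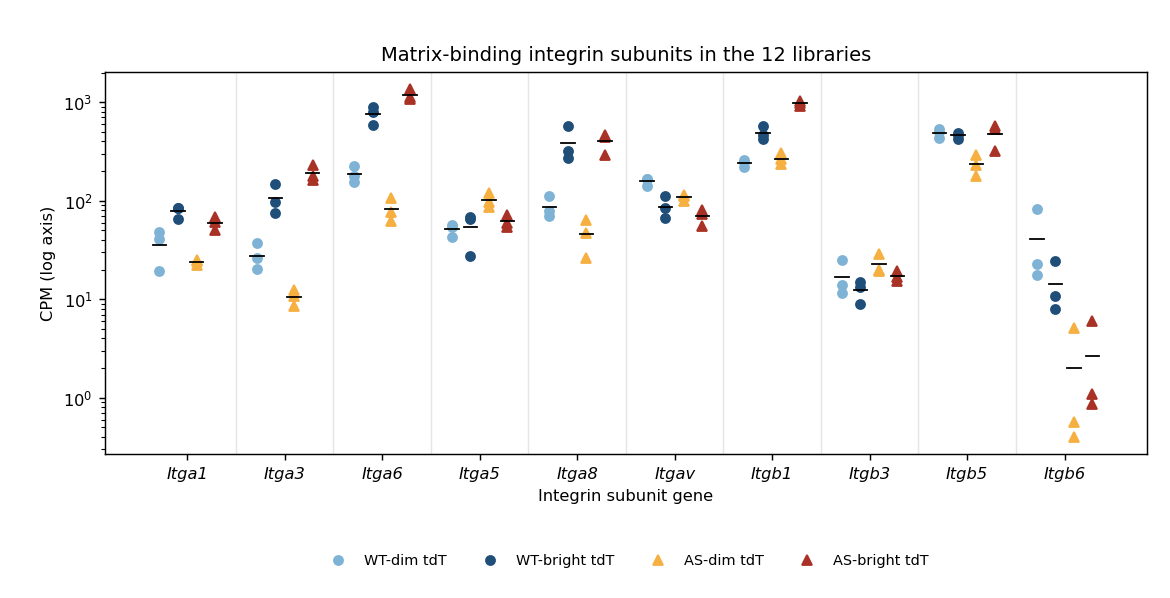
CPM on a log axis of each of the 10 integrin subunit genes in the 12 libraries, with 1 point per library, circles for WT, triangles for AS, and a black line at the mean of the 3 libraries of a group. Itga3, Itga6 and Itga8 stand higher in every bright tdT than in every dim tdT library, and Itgb6 stands lower in every AS than in every WT library.

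**Figure D2:**
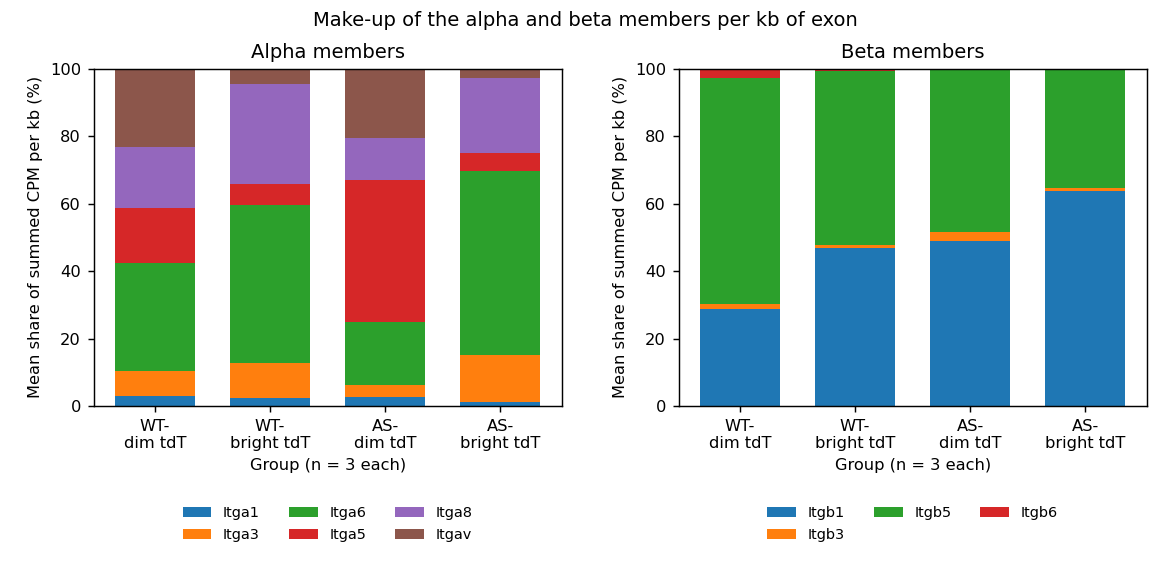
Mean share, in percent, of each member in the summed CPM per kb of the alpha members and of the beta members, by group with n = 3 each. The Itga5 share is 41.9% in AS-dim tdT and at most 16.2% in the other groups, and the Itgb1 share is 28.8% in WT-dim tdT and 63.9% in AS-bright tdT.

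The bright tdT and dim tdT cells of WT mice were compared to ask which subunits the subpopulations differ in. Laminin, collagen and nephronectin receptor subunits were higher in WT-bright tdT GEC: of the 10 members 5 were called, all higher, where 25.3% of the 14247 genes tested were called and 13.8% were called higher. The members' median log2 fold change was 0.58, against -0.04 over all genes tested. At an unadjusted p under 0.05 there were 6 members, 5 higher and 1 lower, where 37.4% of all genes tested reached that level, 19.5% higher and 18% lower. In 6 of the 10 members the libraries did not overlap, as in 41.9% of all genes tested.

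All positions below are on GRCm38, and all members are protein-coding. Itga6 (chromosome 2, 71745616 to 71858416, plus strand, with 4 noncoding genes or pseudogenes overlapping it) encodes the alpha6 laminin receptor subunit. It had 586, 894 and 797 CPM in WT-bright tdT and 223, 180.2 and 156 CPM in WT-dim tdT. All bright tdT libraries lay above all dim tdT libraries, and the log2 fold change was 2.07 (SE 0.25, edgeR adjusted p = 0.000354). Itga3 (chromosome 11, 95044474 to 95076801, minus strand), the other laminin receptor subunit of the list, had 75.0, 149.5 and 96.0 CPM in WT-bright tdT and 26.1, 37.3 and 20.1 CPM in WT-dim tdT. Its groups did not overlap either, with 1.98 on the log2 scale (SE 0.35, edgeR adjusted p = 0.00323). Itga8 (chromosome 2, 12106632 to 12301922, minus strand, with 2 noncoding genes overlapping it), the nephronectin receptor subunit known from mesangial cells, had 575, 321 and 272 CPM in WT-bright tdT and 113, 78.9 and 69.9 CPM in WT-dim tdT. This was the largest difference of the members in WT mice, at 2.22 on the log2 scale (SE 0.35, edgeR adjusted p = 0.00166).

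Itgb1 (chromosome 8, 128685654 to 128733200, plus strand), the beta partner of most alpha members, had 426, 568 and 459 CPM in WT-bright tdT and 258, 246 and 219 CPM in WT-dim tdT, 1.05 on the log2 scale (SE 0.21, edgeR adjusted p = 0.00652). The collagen receptor subunit Itga1 (chromosome 13, 114953096 to 115101964, minus strand) overlaps the protein-coding Pelo and Gm49395 on the same strand, so that its counts are uncertain. It had 85.0, 84.7 and 65.6 CPM in WT-bright tdT and 47.8, 40.6 and 19.3 CPM in WT-dim tdT, with a log2 fold change of 1.18 (adjusted p = 0.0370). The Itga1 call was lost when any library but the first WT-dim tdT one, or both libraries of any mouse, were left out, with an adjusted p of up to 0.170, and that of Itgb1 was lost without both libraries of WT mouse 2 or 3, with an adjusted p of up to 0.0743. Of the members not called, Itgav (chromosome 2, 83724397 to 83806916, plus strand, with 2 noncoding genes or pseudogenes on the other strand), the alpha subunit of the vitronectin receptors, had 112, 66.3 and 83.7 CPM in WT-bright tdT and 139.9, 165 and 167 CPM in WT-dim tdT, without overlap, a log2 fold change of -0.79 (adjusted p = 0.0643), and DESeq2 called it lower (-0.84, adjusted p = 0.0346). Itga5, Itgb3 and Itgb5 had log2 fold changes of 0.10, -0.41 and -0.04 with overlapping libraries, and the 95% confidence intervals of these changes ran from -0.71 to 0.91, from -1.39 to 0.57 and from -0.53 to 0.45. Itgb6 had 24.6, 7.91 and 10.8 CPM in WT-bright tdT and 82.1, 17.8 and 22.8 CPM in WT-dim tdT. It was 2.67-fold lower in WT-bright tdT with overlap between the groups (log2 fold change -1.42, adjusted p = 0.146), and a fit with the mouse as replicate block called it at -1.31 (adjusted p = 0.0170).

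In AS mice the laminin receptor subunits, Itga8, Itgb1, Itga1 and Itgb5 were higher and Itga5 and Itgav were lower in bright tdT than in dim tdT cells. Of the 10 members 8 were called, 6 higher and 2 lower in AS-bright tdT, where 55.1% of the 14052 genes tested were called, 28.6% higher and 26.5% lower. The same 6 and 2 had an unadjusted p under 0.05, where 60.1% of all genes tested did, 30.9% higher and 29.2% lower. In those 8 members the libraries did not overlap, as in 62.4% of all genes tested. The median log2 fold change was 1.16 over the members and 0.02 over all genes tested.

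Itga3 had 233, 178 and 161 CPM in AS-bright tdT and 12.5, 10.8 and 8.54 CPM in AS-dim tdT, 4.15 on the log2 scale (SE 0.24, edgeR adjusted p = 3.1e-07). Itga6 had 1065, 1132 and 1357 CPM in AS-bright tdT and 77.3, 107 and 62.5 CPM in AS-dim tdT, 3.84 on the log2 scale (SE 0.24, edgeR adjusted p = 5.81e-07). Itga8 had 447, 291 and 467 CPM in AS-bright tdT and 63.6, 26.3 and 46.5 CPM in AS-dim tdT, 3.13 on the log2 scale (SE 0.32, edgeR adjusted p = 1.99e-05). In these 3 alpha subunits, the lowest bright tdT library was several times the highest dim tdT library.

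Itgb1 had 915, 1020.1 and 979 CPM in AS-bright tdT and 267, 304 and 234 CPM in AS-dim tdT, 1.85 on the log2 scale (SE 0.17, edgeR adjusted p = 1.04e-05). Itga1 was also higher, at 49.9, 60.4 and 67.9 CPM in AS-bright tdT against 24.6, 22.0 and 24.8 CPM in AS-dim tdT (log2 fold change 1.31, adjusted p = 0.000325). Itgb5 (chromosome 16, 33829665 to 33949338, plus strand), a beta partner of alphav in vitronectin receptors, had 533, 318 and 573 CPM in AS-bright tdT and 292, 230.3 and 177 CPM in AS-dim tdT. It was called higher in AS-bright tdT with a log2 fold change of 1.01 (adjusted p = 0.00723). The 2 members called lower were Itga5, the fibronectin receptor subunit, and Itgav. Itga5 (chromosome 15, 103344286 to 103366763, minus strand, overlapping the microRNA gene Mir6963) had 72.3, 54.6 and 59.3 CPM in AS-bright tdT and 86.7, 97.6 and 121 CPM in AS-dim tdT (log2 fold change -0.72, adjusted p = 0.0103). Itgav had 55.3, 72.8 and 80.9 CPM in AS-bright tdT and 115, 99.7 and 111 CPM in AS-dim tdT (log2 fold change -0.65, adjusted p = 0.0151). The calls of Itga5 and Itgb5 were lost without both libraries of AS mouse 3 (adjusted p of up to 0.0872 and 0.102), and that of Itgav was lost without a library of AS mouse 1 or both (up to 0.160). Itgb3 (chromosome 11, 104608000 to 104670476, plus strand), the beta subunit of the platelet and vitronectin receptors, was low throughout, at 15.4, 19.4 and 16.9 CPM in AS-bright tdT and 19.4, 29.1 and 20.0 CPM in AS-dim tdT, and was not called (log2 fold change -0.41, 95% confidence interval -0.97 to 0.14). Itgb6 was at or under 6.00 CPM in all 6 AS libraries and was not called (log2 fold change 0.49, adjusted p = 0.682), and without the second AS-bright tdT library the sign turned to -1.02.

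**Figure D3:**
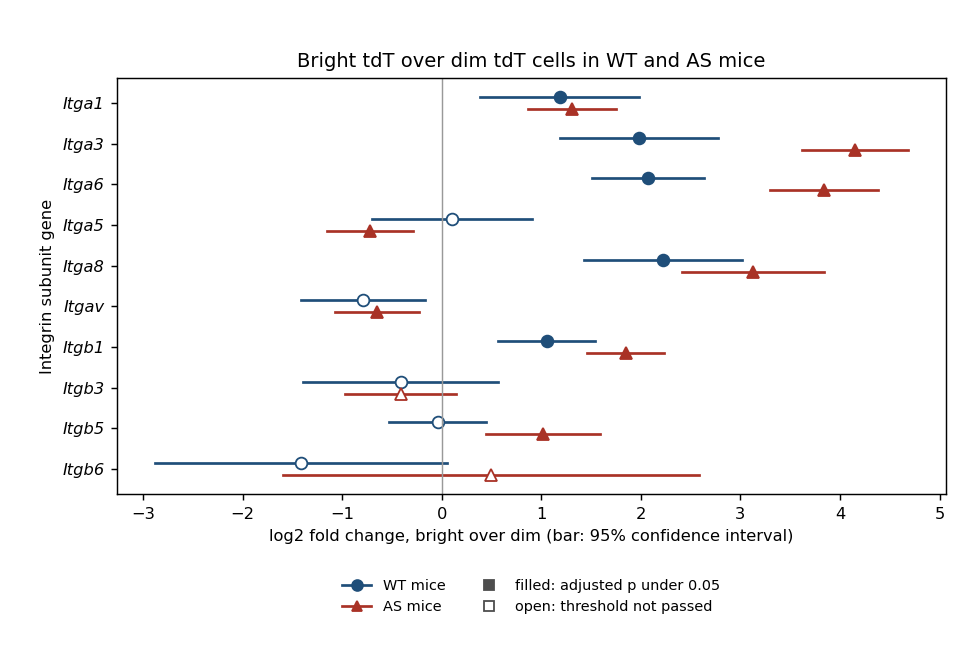
Difference between bright tdT and dim tdT cells (log2 fold change, bright over dim) for each integrin subunit gene, circles for WT and triangles for AS mice, with 95% confidence intervals and filled symbols for an adjusted p under 0.05. Itga3 and Itga6 lie at 1.98 and 2.07 in WT and at 4.15 and 3.84 in AS mice, while the intervals of Itgb3 include 0 in both genotypes.

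AS was compared with WT within the bright tdT GEC to ask which subunits differ with the disease. No member was called by edgeR's quasi-likelihood test, where 0.452% of the 14396 genes tested were called, 0.188% higher and 0.264% lower. There were 4 members, 3 higher and 1 lower, that reached an unadjusted p under 0.05, where 21.8% of all genes tested reached that level, 9.98% higher and 11.9% lower. DESeq2 called 2 members and edgeR's likelihood ratio test also called 2, Itgb1 and Itgb6 in both. Of all genes tested, DESeq2 called 1117 and the likelihood ratio test 827, where the main test called 65. The libraries of 5 members did not overlap between the genotypes, as in 24.5% of all genes tested, and the median log2 fold change was 0.06 over the members and -0.03 over all genes tested.

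Itgb1 came nearest to the threshold: AS-bright tdT at 915, 1020.1 and 979 CPM lay above WT-bright tdT at 426, 568 and 459 CPM in every library, a 1.91-fold difference. The log2 fold change was 0.94 (SE 0.20, edgeR adjusted p = 0.0562), with an adjusted p of 0.000801 to 0.302 over 17 alternatives. The laminin receptor subunits had the same sign. Itga3 stood at 233, 178 and 161 CPM in AS against 75.0, 149.5 and 96.0 CPM in WT (log2 fold change 0.78, adjusted p = 0.138), and Itga6 at 1065, 1132 and 1357 CPM against 586, 894 and 797 CPM (log2 fold change 0.58, adjusted p = 0.163). Neither overlapped between the genotypes. Itga1 had 49.9, 60.4 and 67.9 CPM in AS and 85.0, 84.7 and 65.6 CPM in WT (log2 fold change -0.47, adjusted p = 0.243). These levels overlapped, and they did not when the bright tdT libraries were normalized on their own, as in the test. Itga8, Itgb5 and Itga5 had log2 fold changes of -0.04, -0.03 and 0.15 with overlapping libraries, and the 95% confidence intervals ran from -0.73 to 0.65, from -0.57 to 0.51 and from -0.54 to 0.85. Itgav and Itgb3 had log2 fold changes of -0.41 and 0.41, with overlap in both.

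In the dim tdT cells, AS and WT differed in 5 of the 10 members, 4 lower and 1 higher, where 8.63% of the 14637 genes tested were called, 6.42% lower and 2.21% higher. At an unadjusted p under 0.05 there were 7 members, 1 higher and 6 lower, where 26.3% of all genes tested reached that level, 10.3% higher and 15.9% lower. The libraries of 7 members did not overlap, as in 31.2% of all genes tested. The median log2 fold change was -0.80 over the members and -0.02 over all genes tested. The laminin receptor subunits Itga3 and Itga6 and the alphav partners Itgb5 and Itgb6 were lower, and the fibronectin receptor subunit Itga5 was higher, in AS-dim tdT. These calls depended on the fit: DESeq2 called 6 members, the same 5 and Itgav, while edgeR's version 3 quasi-likelihood fit kept 2 of the 5, Itga6 and Itgb5, and each of the 5 was lost when 1 or more single libraries were left out. Of all genes tested, DESeq2 called 2213 and the version 3 fit 582, where the main test called 1263.

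Itga3 had 26.1, 37.3 and 20.1 CPM in WT-dim tdT and 12.5, 10.8 and 8.54 CPM in AS-dim tdT, -1.42 on the log2 scale (SE 0.35, edgeR adjusted p = 0.0439). Itga6 had 223, 180.2 and 156 CPM in WT-dim tdT and 77.3, 107 and 62.5 CPM in AS-dim tdT, -1.22 on the log2 scale (SE 0.25, edgeR adjusted p = 0.0296). The endothelial marker sum moved with both, from 668 to 1266 CPM in WT-dim tdT to 218 to 299.7 CPM in AS-dim tdT, and its part in the difference was not tested. Itgb5 had 433, 501 and 533 CPM in WT-dim tdT and 292, 230.3 and 177 CPM in AS-dim tdT, -1.10 on the log2 scale (SE 0.21, edgeR adjusted p = 0.0255). Itga5 had 56.7, 54.3 and 43.1 CPM in WT-dim tdT and 86.7, 97.6 and 121 CPM in AS-dim tdT, 0.95 on the log2 scale (SE 0.23, edgeR adjusted p = 0.0411). The leukocyte marker sum moved with Itga5, from 3605 to 5698 CPM in WT-dim tdT to 7792 to 9889 CPM in AS-dim tdT. Set against that sum, Itga5 stood at 7.56 to 15.1 CPM in WT-dim tdT and 10.8 to 12.5 CPM in AS-dim tdT per 1000 CPM of the leukocyte markers, so the ratios overlapped. With the mean of these markers as a covariate the log2 fold change of Itga5 was 1.44, and that fit called 0 genes of all tested. The order of the libraries by Itga5 and by these markers was the same in 0 of the 4 groups, and with the bright tdT libraries, at 792 to 4909, the ratio spanned a 649-fold range over the 12 libraries. Leaving out any 1 of the 6 libraries took the Itga5 call away (adjusted p of up to 0.161). The Itga3 call was lost without any library but the third WT-dim tdT one (up to 0.165). The Itga6 call was lost without the first or second WT-dim tdT library, or the first or the third AS-dim tdT library (up to 0.130), and the Itgb5 call without the second WT-dim tdT or any AS-dim tdT library (up to 0.117).

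Itga8, Itgav, Itga1, Itgb3 and Itgb1 were not called in the dim tdT cells. Itga8 had 113, 78.9 and 69.9 CPM in WT-dim tdT and 63.6, 26.3 and 46.5 CPM in AS-dim tdT, without overlap (log2 fold change -0.97, adjusted p = 0.119). Itgav had 139.9, 165 and 167 CPM in WT-dim tdT and 115, 99.7 and 111 CPM in AS-dim tdT, also without overlap (log2 fold change -0.57, adjusted p = 0.0820), and was called by DESeq2 (-0.58, adjusted p = 0.0262). Itga1 overlapped between the genotypes (log2 fold change -0.63, adjusted p = 0.313). Itgb3 at 11.6 to 25.1 CPM in WT-dim tdT and 19.4 to 29.1 CPM in AS-dim tdT overlapped as well. Itgb1 also overlapped, at 258, 246 and 219 CPM in WT-dim tdT and 267, 304 and 234 CPM in AS-dim tdT (log2 fold change 0.12, 95% confidence interval -0.29 to 0.52).

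**Figure D4:**
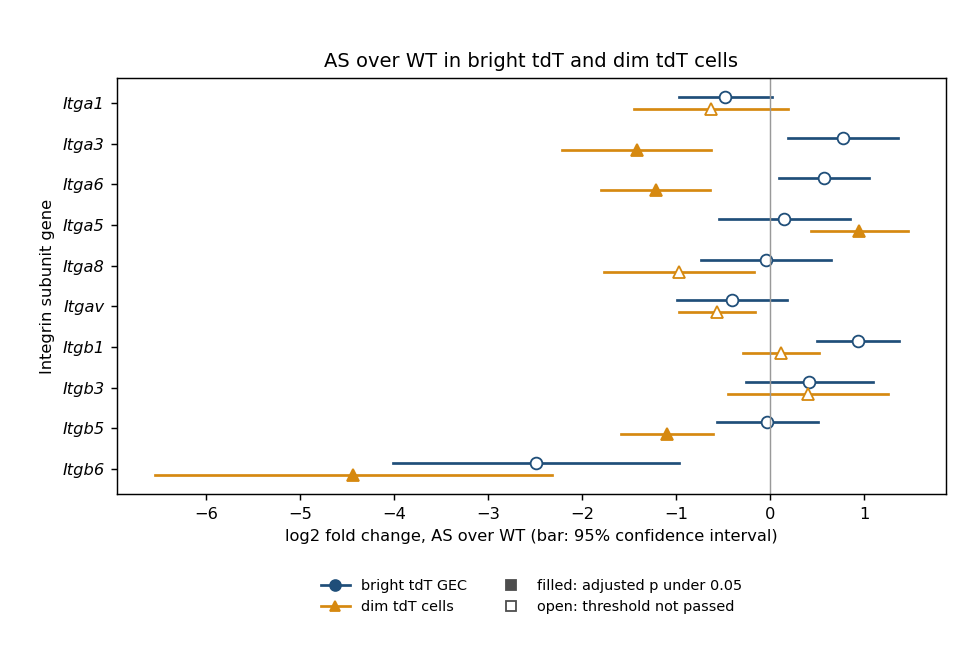
log2 fold change of AS over WT for each integrin subunit gene, circles for bright tdT and triangles for dim tdT cells, with 95% confidence intervals and filled symbols for an adjusted p under 0.05. Itga3 and Itga6 lie at 0.78 and 0.58 in bright tdT and at -1.42 and -1.22 in dim tdT cells, and Itgb6 lies lowest in both.

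Whether the AS over WT difference itself differed between the subpopulations was tested as an interaction in one fit of all 12 libraries. It was called in 2 of the 10 members, both higher, where 3.77% of the 15084 genes tested were called, 2.96% higher and 0.815% lower. There were 4 members, all higher, at an unadjusted p under 0.05, where 18.5% of all genes tested reached that level, 11.5% higher and 6.95% lower. The median was 0.91 over the members and 0.13 over all genes tested. For Itga3 the AS over WT difference was 2.22 higher in bright tdT than in dim tdT cells on the log2 scale (SE 0.43, edgeR adjusted p = 0.0136). For Itga6 it was 1.83 higher (SE 0.34, edgeR adjusted p = 0.0107). Both laminin receptor subunits thus stood higher in AS than in WT in every bright tdT library and lower in AS than in WT in every dim tdT library. The podocyte marker sum moved with both genes. The endothelial marker sum did so in dim tdT cells. In bright tdT GEC it overlapped, at 14839 to 17798 CPM in AS and 9936 to 15713 CPM in WT. While Itga3 spanned a 27.3-fold range over the 12 libraries, the podocyte marker sum spanned a 2.81-fold range. Itga3 per 1000 CPM of the podocyte markers spanned a 10.9-fold range, and the library order was the same in 2 of the 4 groups. The interaction was called, all higher, in 5 of the 6 podocyte markers (median 2.44) and 7 of the 10 endothelial markers (median 2.59). Of the podocyte markers, Nphs1, the slit diaphragm protein nephrin, had 16.5 to 39.0 CPM in AS-bright tdT, 6.83 to 9.54 CPM in WT-bright tdT, 15.2 to 20.4 CPM in AS-dim tdT and 19.3 to 87.3 CPM in WT-dim tdT. The summed level of the list is mostly Podxl in bright tdT GEC, a gene that endothelial cells also express, with a mean of 1105 CPM in AS and 931 CPM in WT and a log2 fold change of 0.18 that was not called. The part of these cells in the interaction was not tested. The same numbers are the difference between AS and WT mice in their bright tdT over dim tdT change. With the mouse as a replicate block both were called again, at 2.24 and 1.85. Without both libraries of an AS mouse the Itga3 call was lost for each of the 3 mice (adjusted p of up to 0.0905) and the Itga6 call for mice 1 and 3 (up to 0.0822), with interactions of 1.95 to 2.54 and 1.53 to 1.98 over all libraries or mice left out. Itgb5 at 1.11 and Itgb1 at 0.85 were not called (adjusted p = 0.0912 and 0.0810), nor were the other 6 members, while DESeq2 called Itgb1 as well (0.81, adjusted p = 0.0256).

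Itgb6 (chromosome 2, 60598292 to 60722643, minus strand, overlapped by no other gene) encodes the beta6 subunit, which pairs with alphav and is known from epithelial cells, where the receptor binds latent TGF-beta. In the dim tdT cells it had 82.1, 17.8 and 22.8 CPM in WT and 0.565, 5.06 and 0.399 CPM in AS, from 936, 211 and 270 counts in WT and 8, 61 and 5 counts in AS. All AS libraries lay below all WT libraries, and the fitted level was 21.6-fold lower in AS (log2 fold change -4.43, SE 0.92, edgeR adjusted p = 0.0296). The bright tdT libraries had 24.6, 7.91 and 10.8 CPM of Itgb6 in WT and 1.09, 6.00 and 0.874 CPM in AS, again without overlap (log2 fold change -2.49, SE 0.69, edgeR adjusted p = 0.0911). Leaving out the second AS-bright tdT library, the highest of its group, gave -3.95 (adjusted p = 0.0463). In the dim tdT cells the call was lost without the first or the third AS-dim tdT library (adjusted p of up to 0.125). The log2 fold change there ran from -6.43 to -3.41 with 1 library left out.

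Proximal tubule markers moved with Itgb6 from library to library. The 10 markers, among them Lrp2, Cubn and Slc34a1, summed to 4971, 1190.04 and 1334 CPM in WT-dim tdT, 2139, 449.6 and 619 CPM in WT-bright tdT, 35.8, 399.8 and 27.1 CPM in AS-dim tdT and 161, 535 and 160.2 CPM in AS-bright tdT, for replicates 1, 2 and 3. The sum was highest in the first WT-dim tdT library, next in the first WT-bright tdT library, and lowest in the first and the third AS-dim tdT libraries. Within each of the 4 groups the 3 libraries had the same order by Itgb6 and by these markers. While Itgb6 spanned a 206-fold range over the 12 libraries and the markers a 184-fold range, Itgb6 per 1000 CPM of the markers spanned a 3.23-fold range. This ratio was 14.98 to 17.1 in WT-dim tdT, 12.6 to 15.8 in AS-dim tdT, 11.5 to 17.6 in WT-bright tdT and 5.45 to 11.2 in AS-bright tdT. With the mean of the markers as a covariate the AS over WT log2 fold change of Itgb6 was -0.36 for dim tdT (adjusted p = 0.993) and -0.73 for bright tdT GEC (adjusted p = 0.777). In the dim tdT cells the same covariate took the change of Itga6 from -1.22 to -0.37 (adjusted p = 0.979), while those of Itga3 and Itgb5 were -1.40 and -1.12. Those fits called 1 gene of all tested in dim tdT and 0 in bright tdT GEC, so a lost call says little. With the leukocyte markers as the covariate in place of these, the change of Itgb6 was -1.503 for dim tdT cells (adjusted p = 0.682) and -5.64 for bright tdT GEC, which was called (adjusted p = 0.0101). The difference in Itgb6 and that in the proximal tubule markers cannot be told apart in these libraries.

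**Figure D5:**
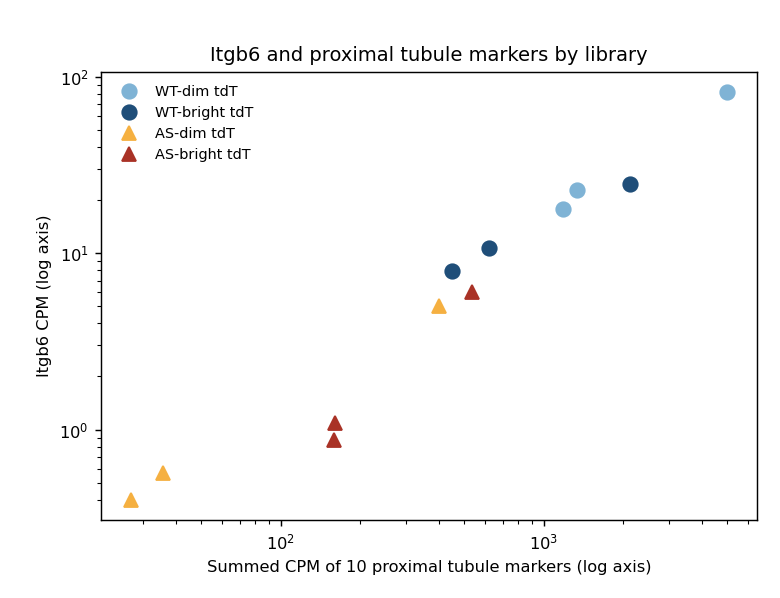
Itgb6 CPM against the summed CPM of 10 proximal tubule markers, both on log axes, with 1 point per library, circles for WT and triangles for AS. The points run along 1 diagonal from AS-dim tdT replicate 3 at 27.1 and 0.399 CPM to WT-dim tdT replicate 1 at 4971 and 82.1 CPM.

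Genes whose pattern was most like that of a member were looked up for Itgb6 and Itga8 among 15084 genes, by the root mean square difference of log2 CPM centred on each gene's mean over the 12 libraries. The 5 nearest to Itgb6 were Slc44a4 at 0.32, Vil1 at 0.42, Fah at 0.42, Ephx2 at 0.42 and Gm19950 at 0.53. Vil1 encodes villin of the brush border, and Fah and Ephx2 encode metabolic enzymes. The 5 nearest to Itga8 were Thra at 0.31, Ano1 at 0.33, Fhl2 at 0.37, Mfge8 at 0.39 and Oaz2 at 0.39. Itga8 spanned a 21.9-fold range over the 12 libraries and the 8 mesangial and mural markers, among them Pdgfrb and Serpine2, a 23.95-fold range, while Itga8 per 1000 CPM of these markers spanned 295 to 584 CPM, a 1.98-fold range, and the libraries had the same order by both in 2 of the 4 groups. The marker sum was 484 to 1005 CPM in WT-bright tdT, 752 to 1515 CPM in AS-bright tdT, 150 to 292 CPM in WT-dim tdT and 63.2 to 142 CPM in AS-dim tdT. For the laminin receptor subunit Itga6 the ratio ranged more widely. Itga6 per 1000 CPM of the endothelial markers ran from 56.9 to 91.4 CPM in the bright tdT and from 142 to 378 CPM in the dim tdT libraries. The order of the libraries by Itga6 and by these markers was the same in 1 of the 4 groups.

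Of the 8 other matrix-binding subunits listed, 5 to 7 could be tested in a comparison, and Itga11 was not analysed here. None of 6 was called by edgeR's quasi-likelihood test between AS and WT in the bright tdT GEC, where 0.452% of all genes were called, and 2 of the 6 had an unadjusted p under 0.05, both higher, where 21.8% of all genes did, 9.98% higher. In the dim tdT cells 1 of 5, Itgb8, another alphav partner, was lower in AS (log2 fold change -2.35, edgeR adjusted p = 0.0375), where 8.63% of all genes were called. Epithelial markers moved the same way in these libraries, with median log2 fold changes of -4.20 over 10 proximal tubule markers, 6 of them called, -2.90 over 6 markers of the loop, distal tubule and collecting duct, 5 of them called, and -2.65 over 6 pan-epithelial markers, 2 of them called. Their part in the Itgb8 difference was not tested. In WT mice, Itga9, a receptor subunit for tenascin and Svep1, and Itgb4, the laminin receptor partner of alpha6, were higher in bright tdT than in dim tdT cells (log2 fold changes 2.55 and 3.24) and the collagen receptor subunit Itga2 was lower (-4.63). In AS mice Itga9, Itgb4 and Itga7 were higher (3.98, 2.99 and 2.66) and Itga2 was lower (-3.66). These are 3 of 6 in WT, where 25.3% of all genes were called, and 4 of 7 in AS, which at 57.1% is near the 55.1% of all genes. Itgb4 was only at 0.169 to 0.506 CPM in WT-dim tdT and 0.166 to 0.399 CPM in AS-dim tdT. Itga2 was at 0.0633 to 0.428 CPM in WT-bright tdT and 0.291 to 0.729 CPM in AS-bright tdT, and Itga7 at 0 to 0.718 CPM in AS-dim tdT. The sizes of their changes are therefore imprecise. None of 7 was called for the interaction, where 3.77% of all genes were, and 1 had an unadjusted p under 0.05, where 18.5% of all genes did. The medians of this list were -0.04 and 0.39 for AS over WT in bright tdT and dim tdT cells, 0.43 in WT and 0.37 in AS mice for the subpopulations, and 1.04 for the interaction.

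Adaptors that link integrins to actin included members higher in bright tdT and members higher in dim tdT cells. Of 18 tested in WT mice 7 were higher and 2 lower in bright tdT, and of 17 in AS mice 8 were higher and 3 lower. In all, 50% of those tested in WT and 64.7% in AS were called, where 25.3% and 55.1% of all genes were, so the share in AS was near that of all genes. Among those higher were Fermt2, the kindlin of most adherent cells (log2 fold changes 2.70 in WT and 4.81 in AS), Ptk2, the focal adhesion kinase (2.68 and 4.18), Parvb in WT (2.64) and the scaffold Bcar1 in AS (5.83). Those lower were the focal adhesion protein Zyx (-2.44 and -2.32), Fermt3, the kindlin of blood cells (-1.51 and -2.31), and Sharpin in AS (-1.10). Between AS and WT none of 18 was called by the same test in bright tdT GEC, where 2 higher and 2 lower ones reached an unadjusted p under 0.05, at 22.2% near the 21.8% of all genes, while in dim tdT cells 2 of 18 were higher, Fermt3 at 1.14 and the talin Tln1 at 1.06, and 3 were lower, Bcar1 at -3.31, Fermt2 at -1.91 and Parva at -1.82. Of all genes tested, 0.452% were called in bright tdT GEC and 8.63% in dim tdT cells. The interaction was called for Bcar1, Parva and Fermt2 (3.44, 2.32 and 2.16), 3 of 18 where 3.77% of all genes were called. In the dim tdT cells 7 of 9 endothelial markers were called lower in AS (median -2.21) and 3 of 10 leukocyte markers higher (median 0.53). For the interaction 7 of 10 endothelial markers were called, all higher. Their part in the adaptor differences was not tested. The adaptor medians were 0.08 and -0.30 for AS over WT in bright tdT and dim tdT, 0.71 in WT and 0.65 in AS for the subpopulations, and 0.16 for the interaction.

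Among the ligands of these receptors, laminin chains and the type IV collagen chains Col4a1 and Col4a2 were higher in bright tdT and fibronectin and thrombospondin in dim tdT cells. Of 18 tested in each genotype, 11 were higher and 6 lower in WT-bright tdT than in WT-dim tdT, and 12 were higher and 3 lower in AS. These are 94.4% and 83.3% of those tested, where 25.3% and 55.1% of all genes were called, and in AS 26.5% of all genes were called lower. The laminin chain Lama4 (log2 fold changes 4.38 in WT and 6.10 in AS) and the type IV collagen chain Col4a2 (3.10 and 5.71) were higher in bright tdT, with Fbn1 in WT (3.75) and Col4a1 in AS (5.94). Fibronectin, Fn1 (-5.39 and -7.23), and Thbs1 (-6.41 and -6.59) were lower, with Svep1 in WT (-4.34) and Tgfb1 in AS (-0.94). For AS over WT, 4 of 18 ligands were called in the bright tdT GEC, all higher, including Svep1 at 4.70, Col1a2 at 1.69 and Col4a2 at 1.59, where 0.452% of all genes were called. In the dim tdT cells 4 of 19 were called, all lower, including Lama3 at -3.93, osteopontin, Spp1, at -2.62, and nephronectin, Npnt, the ligand of alpha8 with beta1, at -1.82, where 8.63% of all genes were called. The tubule and pan-epithelial markers had the medians given beside Itgb8 in these libraries, and of 6 podocyte markers 3 were called lower and 1 higher (median -1.80). Their part in the ligand differences was not tested. The interaction was called for 7 of 18, where 3.77% of all genes were called, all higher, led by Svep1 at 5.24, Lama3 at 3.68 and Col4a1 at 2.92. Svep1 was only at 0.127 to 0.214 CPM in WT-bright tdT, against 3.28 to 6.07 CPM in AS-bright tdT. Its interaction and its changes that use WT-bright tdT, 4.70 and -4.34, are therefore imprecise. The medians were 0.59 and -0.85 for AS over WT in bright tdT and dim tdT, 2.17 in WT and 3.50 in AS for the subpopulations, and 1.86 for the interaction. The comparisons of AS with WT and of bright tdT with dim tdT share libraries and are not independent of each other.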

How the data were processed

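Poly-A RNA of 12 libraries was sequenced in pairs of reads. Per the methods and labels, the authors aligned the reads with STAR 2.6.0c to GRCm38.p5 and deposited counts per gene, not normalized, in a table for each subpopulation. The tables also hold gene lengths, RPKM values and the authors' own edgeR results of AS over WT (log2 fold changes, logCPM, likelihood ratios, p-values and FDR), none of which was used. Which strand setting the counting used is not given in the sources used here, so members with an overlapping gene have uncertain counts. Library totals were 11440169 to 15074909 counts, and 92 ERCC spike-ins were left out.

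Counts were tested with edgeR 4.0.16 in R 4.3.3: filterByExpr, TMM, the quasi-likelihood fit and Benjamini-Hochberg adjustment. AS over WT used the 6 libraries of a table, normalized within it, bright tdT over dim tdT the 6 libraries of a genotype on the genes in both tables, and the interaction all 12. This edgeR offers a version 3 and a version 4 form of the fit. The version 3 form was run first, as the default, and several settings were then compared with earlier results of these data. The version 4 form matched those and was made the main test after the calls of both were known. It makes more calls, and the version 3 calls are given as an alternative. No overlap means that every library of a group lies above every library of the other. With 3 against 3, permuting the samples cannot give a two-sided p below 0.1. CPM per kb used the union of exons in Gencode M21 on GRCm38, which also gave the coordinates. Standard errors (SE) and 95% confidence intervals came from the same fits, which were tested on simulated data.

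The members and lists were chosen with earlier results of these data known, and the study had singled out Itgb6 in these samples. Named were all members, in each list up to 3 called genes in each direction by size, Col4a5 and the 5 genes nearest to Itgb6 and Itga8. Marker sums set beside a member were chosen after the values were seen, as was Plvap. The labels give both libraries of a mouse the same animal number, so they are paired. Their deviations correlated across genes at 0.102 to 0.274 in WT and 0.0796 to 0.385 in AS. AS and WT mice share only a replicate number. Alternatives were other normalizations (RLE, or none beyond library size), DESeq2 1.42.0, the likelihood ratio test of edgeR, every gene with a count, an average logCPM above 1, a replicate block, marker covariates, all 12 libraries in one fit and each library left out. The version 3 fit and leaving out both libraries of a mouse were added after the data had been seen.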

Additional observations from a re-analysis of the deposited data

Results flagged for a closer look

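The difference between AS and WT was itself different in bright tdT and dim tdT cells for 2 members, by the interaction term of edgeR's quasi-likelihood fit. For Itga3 the AS over WT log2 fold change was 2.22 higher in bright tdT than in dim tdT cells (adjusted p = 0.0136), and for Itga6 it was 1.83 higher (adjusted p = 0.0107). The endothelial marker sum was lower in AS-dim tdT than in WT-dim tdT, at 218 to 299.7 against 668 to 1266 CPM, while the podocyte marker Nphs1 overlapped, at 15.2 to 20.4 against 19.3 to 87.3 CPM. In bright tdT GEC Nphs1 was at 16.5 to 39.0 CPM in AS against 6.83 to 9.54 CPM in WT. The interaction was called in 5 of 6 podocyte and 7 of 10 endothelial markers, with medians of 2.44 and 2.59. The part of these markers' cells in the differences was not tested. Groups of 3 libraries are too small for a test of single libraries that stand apart.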

How the results depend on the processing

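Across 17 to 26 alternatives for each of 50 pairs of a member and a comparison, 840 of 960 values kept their direction and their side of the threshold, 63 lost a call, 16 gained one and 41 changed sign, none of the latter in the 20 called pairs. Of these 20, 8 passed under each of the 18 alternatives run for them, which had no marker covariate: Itga3, Itga6 and Itga8 for bright tdT over dim tdT in both genotypes, and Itga1 and Itgb1 in AS mice.

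For AS over WT in bright tdT GEC, 0 members were called, but DESeq2 and the likelihood ratio test each called 2, and a leukocyte marker covariate and one fit of all 12 libraries each called 1. Of all genes tested, these fits called 1117, 827, 491 and 139 in turn, where the main test called 65. Leaving out 1 library gave 0 to 1 member, and 0 to 281 of all genes. In dim tdT cells 5 were called, 6 with DESeq2, which added Itgav, 3 with every gene that has a count, 2 with the version 3 quasi-likelihood fit, and 0 with a replicate block, a proximal tubule covariate or a leukocyte covariate. With the block the 5 log2 fold changes were -1.39, 0.95, -1.24, -1.13 and -4.34 for Itga3, Itga5, Itga6, Itgb5 and Itgb6, close to the main values. With the leukocyte covariate they were -1.72, 1.44, -0.80, -1.70 and -1.503, in a fit that called 0 genes of all tested, so its lost calls say little. Leaving out 1 library gave 0 to 4. AS and WT mice share only a number, so the block of this comparison pairs nothing. All genes called fell from 1263 to 582 with the version 3 fit in dim tdT and from 65 to 0 in bright tdT GEC. In dim tdT cells DESeq2 called 2213 of all genes, the fit of every gene with a count 964, the block 494 and the tubule covariate 1. Between the subpopulations of WT mice, 5 members were called, 6 with RLE, DESeq2 and one fit of all 12 libraries, each of which added Itgav, and 3 to 5 with a library or mouse left out. Between those of AS mice 8 were called, 7 in one fit of all 12 libraries, which lost Itga5 (-0.71), and 6 to 8 with a library or mouse left out. For the interaction 2 were called, 3 with DESeq2, which added Itgb1, and 0 to 2 with a library or mouse left out. Of all genes, RLE, DESeq2 and one fit called 3584, 4147 and 5207 in WT mice, where the main test called 3604. In AS mice one fit called 6594, against 7743, and for the interaction DESeq2 called 1186, against 569. The replicate block by mouse gained the Itgb6 call in WT (-1.31) and changed no other call in the comparisons within a mouse.

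Changes of sign were in members without a call. For AS over WT in bright tdT GEC, Itga8 was 0.0181 with the block, 0.0389 with the tubule covariate, 0.11 with the leukocyte covariate and 0.0450 in one fit, Itga5 was -0.32 with the tubule covariate, and Itgb5 was 0.41 with the leukocyte covariate and 0.0457 in one fit. Left-out libraries gave -0.28 to 0.40 for Itga8, -0.14 to 0.34 for Itga5 and -0.21 to 0.20 for Itgb5. In dim tdT cells the leukocyte covariate gave 0.10 for Itga1 and -0.10 for Itgb3, and left-out libraries gave -0.0209 to 0.22 for Itgb1. For bright tdT over dim tdT, library sizes alone gave 0.0059 for Itgb5 in WT. Left-out libraries or mice gave -0.21 to 0.46 for Itga5, -0.63 to 0.0071 for Itgb3 and -0.21 to 0.0621 for Itgb5 in WT, and -1.02 to 2.44 for Itgb6 in AS. For the interaction, Itgb3 was -0.10 with library sizes alone and -0.0916 with an average logCPM above 1, and left-out libraries or mice gave -0.35 to 0.26 for Itgb3, -0.0694 to 0.49 for Itga1 and -0.15 to 0.51 for Itgav. The causes were not tested. Itgb6 rested on 5 to 92 counts in AS libraries, so its fold changes are the least precise.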
